A study of Mus musculus with 45 samples.

Results

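The comparison is of frontonasal and maxillary mesenchyme of the mouse face at embryonic day E11.5. It rests on 6 of the 45 arrays of the series, 3 frontonasal and 3 maxillary, which make up 2 of its 15 groups and were chosen by their labels alone. All embryos were inbred wild-type C57BL6/J, and no group carried a treatment or an allele. Each replicate was a separate pool of prominences from several embryos, from which the ectoderm had been peeled off after Dispase II digestion, so the groups are bulk tissue of a whole prominence. RNA was hybridised to Affymetrix Mouse Gene 1.0 ST arrays, and the values are log2 signals made by the authors. The E12.5 mesenchyme of both prominences and their E11.5 ectoderm, with 3 arrays a group, serve to show where the E11.5 difference depends on age or layer. E11.5 mandibular mesenchyme and ectoderm serve as a reference for the layers, and E10.5 frontonasal mesenchyme extends the time course of a few genes. Of 28944 probe sets with a value, 14472 were tested, and 8590 symbols are among them, so a gene outside the authors' annotated table has no named value here.

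As background, the facial prominences are swellings of neural crest mesenchyme under an ectodermal sheet. The frontonasal prominence surrounds the nasal pits, whose lining becomes the olfactory epithelium, and builds the nose and the midline of the upper lip. The maxillary prominence grows from the first pharyngeal arch and builds the sides of the upper jaw, the cheek and the secondary palate. Crest cells of both prominences carry no Hox code; those of the frontonasal region depend on Alx genes and retinoic acid, and those of the arch are patterned by Dlx genes.

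Of the 14472 tested probe sets, 1401 (9.68%) differed between the prominences at an adjusted p under 0.05 in a limma fit to all arrays with Benjamini-Hochberg adjustment. Frontonasal mesenchyme was higher for 955 (6.6%) and lower for 446 (3.08%). A difference of at least 2-fold was reached by 194 of the higher (1.34%) and 89 of the lower probe sets (0.615%), and one of at least 4-fold by 29 and 17. The 3 arrays of one prominence lay entirely above those of the other for 1386 of the 1401, against 4258 (29.4%) of all tested probe sets. Differences are frontonasal minus maxillary on the log2 scale throughout, with the standard error (SE) of the fit. Counted with 1 probe set per symbol, which is the count the gene lists below are read against, 836 of 8590 genes (9.73%) were higher and 363 (4.23%) lower, with 3116 (36.3%) free of overlap. The median difference over these genes was -0.0033. The 15 genes named in each direction for the largest differences were picked among those free of overlap, so their lack of overlap is not a separate result.

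Replicate arrays correlated at 0.992 to 0.994, and each of the 6 detected between 24075 and 25016 probe sets above background. The median SD over the 3 arrays was 0.12 in frontonasal and 0.10 in maxillary mesenchyme. Maxillary replicate 2 stood apart in a higher signal of epithelial genes, and the epithelial results that turn on it are given without it as well. Replicates are separate pools, so p-values cover the spread between dissections within this strain. That spread is pooled for each probe set over all 15 groups, both layers included. An SE can therefore exceed the spread seen among the 6 arrays compared, or understate it. It understates it for Epcam, Cldn6 and Esrp1, where maxillary replicate 2 lay apart from the other maxillary arrays. The p-values of these genes do not carry that spread in full.

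**Figure D1:**
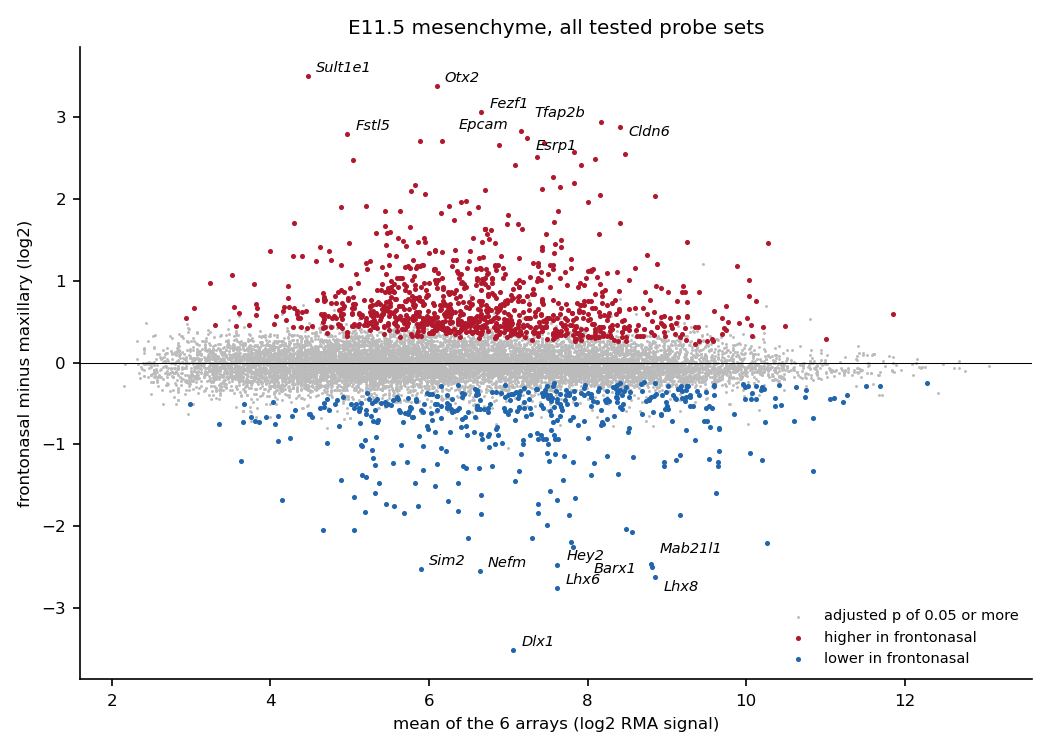
Frontonasal minus maxillary difference (log2, y axis) against the mean log2 signal of the 6 arrays (x axis) for each tested probe set of E11.5 mesenchyme. Red points are the 955 probe sets called higher in frontonasal and blue points the 446 called lower; Dlx1 lies lowest at -3.52, and Sult1e1 (3.51) and Otx2 (3.38) lie at the top.

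The maxillary side was led by homeobox genes of the first arch. Of 25 tested jaw homeobox genes 10 were lower in frontonasal mesenchyme and 5 higher, with a median difference of -0.08. Dlx1, a distal-less homeobox gene of the upper and lower jaw, read 5.50, 5.37 and 5.03 in the frontonasal arrays and 8.91, 8.70 and 8.85 in the maxillary ones. The maxillary arrays lay together, well above the highest frontonasal array. The difference was -3.52 (SE 0.14, limma adjusted p = 1.25e-19), the most negative of all tested probe sets. Dlx2, its neighbour on chromosome 2, read 6.55, 6.35 and 5.77 against 8.41, 8.46 and 8.23, again without overlap, and was 4.42-fold lower (SE 0.20 log2 units, adjusted p = 3.57e-10). Mandibular mesenchyme resembled the maxillary side in having a high Dlx1 signal, 8.56 ± 0.10 (SD, n = 3).

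The promoter windows of this pair are shown because the genes moved together. Each runs from 250 bases before to 50 bases after the transcription start, read in the direction of the gene, in RefSeq GRCm38.p6. Capitals mark GGGCGG or its reverse complement CCGCCC, the letters of a GC box, and TAATTA, a core bound by many homeodomains that reads the same on both strands. Dlx1 lies on the plus strand at chr2:71529195-71529494 and Dlx2 on the minus strand at chr2:71546705-71547004.
Dlx1: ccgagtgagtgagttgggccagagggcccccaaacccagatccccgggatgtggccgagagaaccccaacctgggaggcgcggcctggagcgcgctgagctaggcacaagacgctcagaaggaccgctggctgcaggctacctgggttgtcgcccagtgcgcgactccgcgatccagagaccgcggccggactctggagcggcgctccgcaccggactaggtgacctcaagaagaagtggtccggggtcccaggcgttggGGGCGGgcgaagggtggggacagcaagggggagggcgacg
Dlx2: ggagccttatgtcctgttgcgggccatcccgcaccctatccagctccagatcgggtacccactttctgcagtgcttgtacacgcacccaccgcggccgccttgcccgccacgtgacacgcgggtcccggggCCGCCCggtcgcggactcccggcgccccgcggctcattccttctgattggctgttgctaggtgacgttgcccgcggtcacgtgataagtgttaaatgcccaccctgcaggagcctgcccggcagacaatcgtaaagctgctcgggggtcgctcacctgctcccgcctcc

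Each window holds 1 GC box and no TAATTA. A GC box occurs in 35.7% of all 32851 windows in the table and in 63.2% of the 6573 tested genes that have a window, and TAATTA in 5.29% and 3.96%. Among genes at least 2-fold lower in frontonasal mesenchyme, 30 of the 58 with a window (51.7%) hold a GC box and 3 (5.17%) hold TAATTA. These are matches of letters and say nothing of binding.

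The LIM homeobox genes Lhx6 and Lhx8, which act in palate and tooth development, came next. Lhx6 read 6.18, 6.39 and 6.15 in frontonasal arrays and 9.18, 8.89 and 8.93 in maxillary ones, a 6.77-fold difference (-2.76, SE 0.23, adjusted p = 1.92e-11). Lhx8 read 7.66, 7.23 and 7.73 against 10.17, 10.08 and 10.23 (-2.62, SE 0.28, adjusted p = 5.52e-09). For both, the maxillary arrays agreed closely and none overlapped the frontonasal range. Barx1, a homeobox gene of tooth-forming mesenchyme, read 7.53, 7.43 and 7.72 against 10.13, 10.08 and 9.98 (-2.50, SE 0.19, adjusted p = 2.35e-12). Its mandibular mesenchyme signal of 10.12 ± 0.08 was close to the maxillary one; the frontonasal arrays lay below both. The homeobox genes Meis2 (-1.21, SE 0.11, adjusted p = 3.99e-10) and Prrx1 (-1.33, SE 0.40, adjusted p = 0.0258) were lower as well, though Prrx1 missed the threshold with any 1 of the 6 arrays left out.

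The jaw list was not uniform. Pitx1, a hindlimb and lower jaw homeobox gene, was higher on the frontonasal side, at 8.49, 8.35 and 8.31 against 6.59, 7.54 and 6.76 (1.42, SE 0.17, adjusted p = 4.48e-08). Maxillary replicate 2 was the highest maxillary array for Pitx1, as for the epithelial genes. The part of epithelial RNA in the higher members of this list was not tested. Pax9, needed for palate and teeth, differed by 1.11 (SE 0.18, adjusted p = 1.68e-05) and Meis1 by 1.21 (SE 0.13, adjusted p = 8e-09), so the related Meis1 and Meis2 lay on opposite sides. Dlx3 (0.53) and Gsc (0.62) completed the 5 higher members. Dlx5 and Dlx6, the Dlx pair of the lower jaw, did not pass the test, with differences of 0.21 (SE 0.21) and 0.54 (SE 0.20). Dlx5 averaged 10.16 in mandibular mesenchyme. With any of frontonasal replicates 1 to 3 or maxillary replicate 3 left out, 3 rather than 5 jaw homeobox genes were called higher.

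Genes of the T-box, Osr, Irx and Mab21l families leaned to the maxillary side as well, with 9 of 16 lower and 2 higher in frontonasal mesenchyme (median -0.61). Mab21l1, required for eye and skull development, read 7.64, 7.34 and 7.72 against 9.97, 9.99 and 10.13 (-2.46, SE 0.29, adjusted p = 4.69e-08). Mab21l2 was lower (-2.21, SE 0.37, adjusted p = 3.49e-05). The odd-skipped genes Osr2, which drives palatal shelf growth, and Osr1 were lower, at -1.87 (SE 0.18, adjusted p = 9.57e-10) and -1.57 (SE 0.18, adjusted p = 2.19e-08). Tbx15, a T-box gene of craniofacial and limb skeleton, read 6.58, 6.48 and 6.45 against 8.24, 7.94 and 8.51, and Tbx3 8.67, 8.66 and 8.49 against 9.79, 9.65 and 9.76. Neither gene had overlapping arrays. Irx3, Irx5 and Irx6, of the Iroquois homeobox family, were lower (-0.63, -0.73 and -0.52). Tbx22, the gene of X-linked cleft palate with ankyloglossia, ran the other way at 7.33, 7.13 and 7.38 against 6.36, 6.44 and 6.11 (0.98, SE 0.22, adjusted p = 0.00197). Tbx20 (0.60) was the other higher member, and with frontonasal replicate 1 or 3 or maxillary replicate 1 or 3 left out 1 of the 2 was called.

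Sim2, a single-minded transcription factor, read 4.52, 4.69 and 4.68 in frontonasal arrays, none of which detected it above background, and 7.11, 7.46 and 6.91 in maxillary arrays. The signal was at least 5.78-fold lower in frontonasal mesenchyme (-2.53, SE 0.17, adjusted p = 7.62e-14). Hey2, a repressor downstream of Notch, read 6.26, 6.23 and 6.68 against 8.76, 8.78 and 9.04 (-2.47, SE 0.33, adjusted p = 4.95e-07). Pcdh10, a protocadherin of cell adhesion, read 6.78, 6.41 and 6.88 against 8.98, 8.82 and 9.03 (-2.25, SE 0.25, adjusted p = 1.37e-08). The maxillary arrays were the high ones for all 3 genes, without overlap. Postn, which encodes the matrix protein periostin, was 4.19-fold lower in frontonasal mesenchyme (7.60, 7.36 and 7.63 against 9.52, 9.52 and 9.75, adjusted p = 1.47e-07).

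Alx1 and Pax7 were among the midface factors of the frontonasal side. Of 20 tested midface transcription factors, 11 were higher in frontonasal mesenchyme and 2 lower (median 0.53). Alx1, an aristaless-like homeobox gene whose human counterpart is mutated in frontonasal dysplasia, read 11.10, 10.96 and 10.95 against 9.51, 9.54 and 9.58 (1.46, SE 0.30, adjusted p = 0.000626). The 3 arrays of each prominence were tightly grouped. Its relative Alx4 differed by 0.53 (SE 0.23, adjusted p = 0.181) and did not pass, although its frontonasal arrays at 9.35, 9.27 and 9.30 all lay above the maxillary ones at 8.81, 8.71 and 8.82.

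Pax7, a paired box gene of nasal crest and of muscle precursors, read 8.37, 8.30 and 8.24 against 5.97, 5.99 and 5.68 (2.42, SE 0.14, adjusted p = 2.53e-15), and mandibular mesenchyme at 6.08 ± 0.03 was near the maxillary level. Tfap2b, an AP-2 factor of crest and ectoderm, read 9.69, 9.70 and 9.55 against 6.52, 7.33 and 6.24 (2.95, SE 0.18, adjusted p = 8.47e-15). Its relative Tfap2a read 7.94, 8.05 and 7.96 against 6.27, 6.78 and 6.01 (1.63, SE 0.15, adjusted p = 3.9e-10), while Tfap2c was lower (-0.54). Maxillary replicate 2 was the highest maxillary array for Tfap2a and Tfap2b, and the Tfap2b difference was 3.27 without it. Both genes had higher means in frontonasal ectoderm (9.07 and 10.44), and the part of epithelial RNA in their difference was not tested. Sp8, Zic1, Zic2, Six2, Runx1 and Nr2f2 were higher by 1.48, 0.78, 0.73, 0.55, 0.53 and 0.48. Runx2, the master regulator of bone formation, was lower, at 7.29, 7.30 and 7.47 against 8.76, 8.54 and 8.89 (-1.38, SE 0.15, adjusted p = 6.57e-09). Msx1 (-0.02) and Msx2 (0.00), widespread in growing facial mesenchyme, showed almost no difference in the mean, with an SE of 0.15 for Msx1.

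Forkhead genes were mostly frontonasal, with 7 of 13 higher and 3 lower (median 0.50). Foxc1, needed for eye, meninges and calvaria, read 8.62, 8.71 and 8.84 against 6.53, 6.82 and 6.38 (2.15, SE 0.16, adjusted p = 9.06e-13), and its close relative Foxc2 was higher by 1.57 (SE 0.22, adjusted p = 9.91e-07). Foxd1, a forkhead gene downstream of hedgehog in facial mesenchyme, read 8.89, 8.78 and 9.12 against 6.76, 7.03 and 6.39 (2.20, SE 0.30, adjusted p = 6.45e-07). No arrays overlapped for any of these 3 genes. Foxl2, known from ovary and eyelid, was higher on the maxillary side (-1.20, SE 0.13, adjusted p = 1.68e-08), as were Foxp2 (-0.53) and Foxf2 (-0.50), although with frontonasal replicate 2 left out 1 of these 3 was called.

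**Figure D2:**
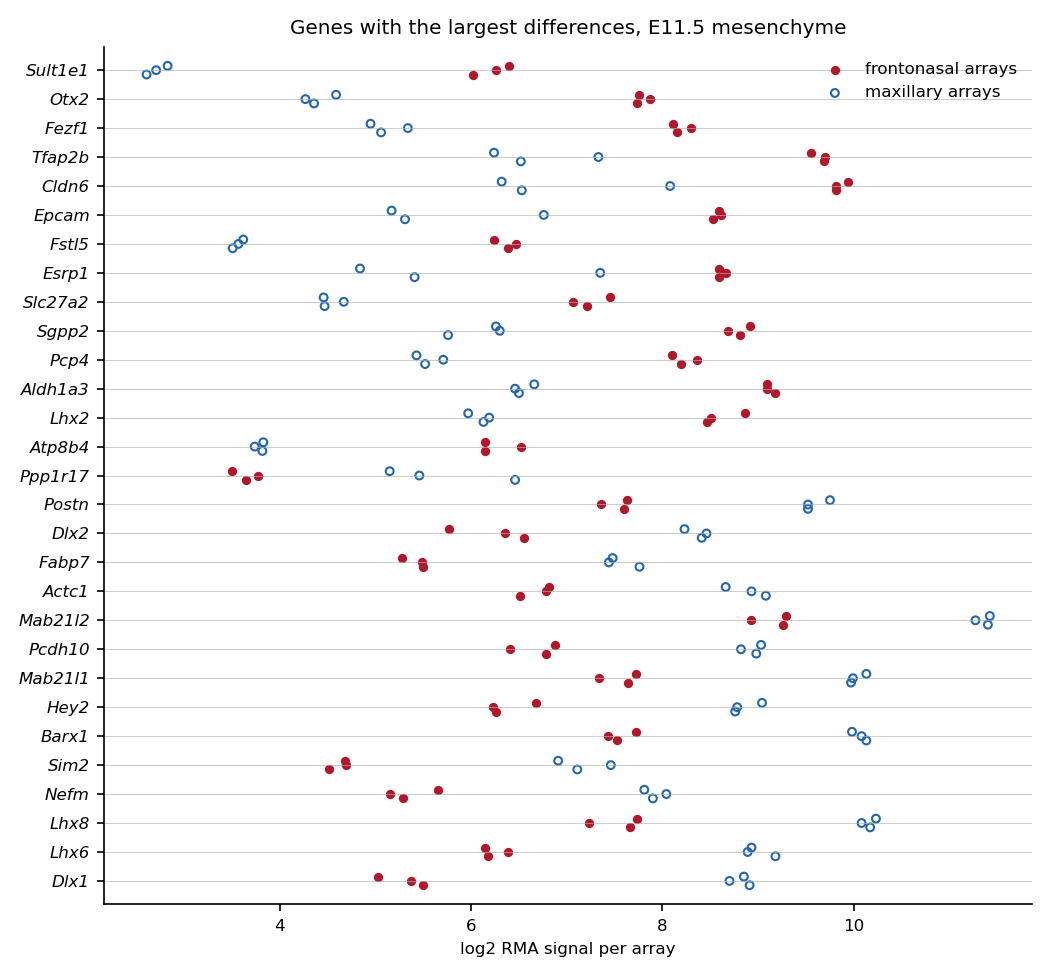
Log2 signal of each of the 3 frontonasal arrays (filled red) and 3 maxillary arrays (open blue) of E11.5 mesenchyme for genes among the 15 with the largest difference in each direction. Only genes without overlap between the red and blue points were eligible. Epcam, Cldn6 and Esrp1 have 1 maxillary array, replicate 2, nearer to the frontonasal ones (6.76, 8.08 and 7.35).

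Retinoic acid is made from vitamin A by Aldh1a enzymes and degraded by Cyp26 enzymes, and the list split by enzyme: of 15 tested members 6 were higher in frontonasal mesenchyme and 2 lower (median 0.01). Aldh1a3, the synthesising enzyme of the nasal region, read 9.18, 9.09 and 9.09 against 6.50, 6.46 and 6.66, a 5.98-fold difference (2.58, SE 0.16, adjusted p = 8.47e-15). Aldh1a2, which makes the same product, read 8.18, 8.33 and 8.21 against 10.04, 10.06 and 10.19, 3.62-fold lower (-1.86, SE 0.31, adjusted p = 3.39e-05). The 2 synthesising enzymes thus differed in opposite directions with no array out of place. Cyp26a1, which degrades retinoic acid, was lower (-1.23, SE 0.21, adjusted p = 4.47e-05). Stra6, the retinol transporter, Rdh10, which oxidises retinol, Crabp1, a binding protein, Rarb, a receptor, and Dhrs3 were higher by 0.91, 0.86, 0.60, 0.44 and 0.43.

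Wnt genes were divided, with 8 of 38 higher and 9 lower (median -0.07). Lef1, a nuclear effector of the pathway, read 9.02, 8.87 and 9.11 against 10.24, 10.21 and 10.36 (-1.27, SE 0.11, adjusted p = 6.75e-11). Axin2, a feedback target, Notum, a feedback inhibitor, the ligand Wnt11 and the agonist Rspo3 were also lower (-0.63, -0.38, -0.85 and -0.94), as were the secreted antagonists Frzb (-1.18) and Sfrp2 (-0.73). On the other side stood the antagonist Wif1, at 8.35, 8.20 and 8.55 against 7.20, 7.12 and 7.30 (1.16, SE 0.19, adjusted p = 2.6e-05). The R-spondin receptors Lgr5 (1.11, SE 0.13, adjusted p = 2.5e-08) and Lgr4 (1.16) and the agonist Rspo2 (0.88) were higher too. The higher count was 5 rather than 8 with any 1 of the 6 arrays left out.

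Most FGF genes that passed were higher on the frontonasal side, with 10 of 27 higher and 2 lower (median 0.22). Among ligands, Fgf9 read 7.86, 7.82 and 7.67 against 6.30, 6.84 and 6.38 (1.28, SE 0.14, adjusted p = 1.41e-08), and Fgf17 (0.73) and Fgf8 (0.51, SE 0.15, adjusted p = 0.0218) were higher. Among known targets of the pathway Etv5, Etv4, Il17rd and Spry2 were higher by 0.63, 0.59, 0.75 and 0.43, whereas Dusp6 (-0.18, SE 0.11), Spry1 (0.25), Spry4 (0.29) and Etv1 (0.08) did not pass. Fgf10, a mesenchymal ligand, was lower (-0.70, SE 0.13, adjusted p = 0.000101), as was the intracellular Fgf13 (-1.0). The maxillary ectoderm means of Fgf9 and Fgf8 (9.12 and 8.88) lay above all 6 mesenchyme arrays, and the epithelial signal described below also differed between the groups; its part in these values was not tested.

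Of 17 hedgehog genes 5 were higher and 1 lower (median 0.06). The ligand Shh (-0.03, SE 0.17), the receptor and target Ptch1 (0.02, SE 0.12) and the target Gli1 (-0.22, SE 0.12) did not pass. Among the higher members were the co-receptors Cdon (0.69, SE 0.08, adjusted p = 8.09e-08) and Boc (0.42), along with Foxd1, Foxf1 (0.61) and Hhip (0.50, whose arrays overlapped); 3 were called higher without frontonasal replicate 1 or 3. The lower member was Foxf2 (-0.50), which was not called without frontonasal replicate 2 or maxillary replicate 1 or 2, and 2 members were lower without frontonasal replicate 3. BMP and TGF-beta genes gave 4 of 32 higher and 1 lower (median 0.06), and 8 were higher where each array was weighted by its fit to its group. Tgfb2, a ligand needed for palate and skeleton, read 8.16, 8.32 and 8.16 against 7.32, 7.15 and 7.33 (0.95, SE 0.11, adjusted p = 2.04e-08), and the co-receptor Tgfbr3 was lower (-0.88, SE 0.10, adjusted p = 1.3e-08). Bmp4, the best known ligand of the family in the face, differed by -0.06. Fstl5, a follistatin-like secreted protein counted in that list, read 6.39, 6.47 and 6.24 against 3.51, 3.57 and 3.62 (2.80, SE 0.16, adjusted p = 2.73e-15).

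In the PDGF, endothelin and Notch list 8 of 23 genes were higher and 2 lower (median 0.12). Pdgfa, a ligand of the crest receptor Pdgfra, read 8.38, 8.17 and 8.21 against 6.75, 7.71 and 6.27 (1.34, SE 0.17, adjusted p = 2.78e-07), and the related ligand Pdgfc was higher by 0.63. Pdgfra itself differed by -0.02 (SE 0.31). The Notch targets split, with Hes1 higher by 0.77 and Hey1 by 0.62 while Hey2 was lower. Edn1, the endothelin that specifies the lower jaw, differed by -0.39 and did not pass. Maxillary replicate 2 was the highest maxillary array for Pdgfa, as for the epithelial genes, and without it Pdgfa differed by 1.74. The higher count was 5 without frontonasal replicate 1 or 2.

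Many of the largest frontonasal differences were of olfactory placode genes or of epithelial genes. Of 24 tested olfactory placode regulators 13 were higher in frontonasal mesenchyme and 0 lower (median 0.64; 15 higher and 0 lower at an unadjusted limma p under 0.05). Otx2, a head homeobox gene, read 7.73, 7.87 and 7.75 in frontonasal arrays and 4.36, 4.27 and 4.59 in maxillary ones, none of which detected it. The frontonasal signal was at least 10.4-fold higher (3.38, SE 0.24, adjusted p = 6.27e-13). Fezf1, a zinc finger gene needed for olfactory axons, read 8.15, 8.30 and 8.11 against 5.06, 5.34 and 4.95 (3.07, SE 0.18, adjusted p = 4.58e-15). Frontonasal ectoderm was high for both genes (8.30 ± 0.78 and 9.03 ± 0.42), and maxillary ectoderm was low (4.81 ± 0.58 and 5.32 ± 0.11). Fewer cells of a type and less RNA per cell cannot be told apart in such bulk samples.

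The promoter windows of these genes are shown as those of the strongest placode differences, with the same capitals. Otx2 lies on the minus strand at chr14:48667595-48667894, the first of its 4 windows in the table, and Fezf1 on the minus strand at chr6:23248215-23248514.
Otx2: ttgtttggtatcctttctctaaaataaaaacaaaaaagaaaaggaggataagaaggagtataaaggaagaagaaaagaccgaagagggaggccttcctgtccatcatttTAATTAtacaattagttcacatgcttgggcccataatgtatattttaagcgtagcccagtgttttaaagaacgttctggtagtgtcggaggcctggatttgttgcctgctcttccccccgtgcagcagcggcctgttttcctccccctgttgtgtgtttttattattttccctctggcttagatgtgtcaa
Fezf1: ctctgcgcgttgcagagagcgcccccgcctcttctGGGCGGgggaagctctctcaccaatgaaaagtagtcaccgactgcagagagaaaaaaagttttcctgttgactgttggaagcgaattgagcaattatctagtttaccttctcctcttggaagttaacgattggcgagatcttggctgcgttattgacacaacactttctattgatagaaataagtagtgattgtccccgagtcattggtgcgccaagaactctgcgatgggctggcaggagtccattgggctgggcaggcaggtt

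The Otx2 window holds 1 TAATTA and the Fezf1 window 1 GC box. Among genes at least 2-fold higher in frontonasal mesenchyme, 9 of the 116 with a window (7.76%) hold TAATTA and 75 (64.7%) a GC box.

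Lhx2, a LIM homeobox gene of eye and olfactory epithelium, read 8.47, 8.51 and 8.86 against 6.13, 6.19 and 5.97 (2.52, SE 0.20, adjusted p = 5.16e-12). Pax6, the eye and nasal placode regulator, read 6.91, 6.76 and 6.80 against 4.51, 4.86 and 4.79 (2.10, SE 0.20, adjusted p = 2.76e-10). Sox2, of neural and placode progenitors, read 8.42, 8.67 and 8.37 against 6.33, 6.87 and 5.91 (2.12, SE 0.26, adjusted p = 7.77e-08). All 3 genes were without overlap, and for Sox2 maxillary replicate 2 was the nearest to the frontonasal arrays. Eya2, Dmrt3, Dmrta1, Fezf2, Otx1, Six3 and Dmrta2 were higher by 1.57, 1.16, 0.81, 0.78, 0.71, 0.66 and 0.62. Eya1 (-0.01), a broader placode gene, did not pass.

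Of 24 early neuron genes 9 were higher and 3 lower (median 0.27). The proneural and neuroblast factors Nhlh1 (7.07, 7.42 and 7.06 against 6.01, 5.46 and 4.83), Neurod1, Insm1, Nhlh2 and Neurog1 were higher, by 1.75, 1.04, 1.02, 0.87 and 0.70. The proneural factor Neurod4 had the opposite sign and did not pass (-0.55, SE 0.18, limma adjusted p = 0.0503). Calb2, which encodes the calcium-binding protein calretinin, was higher by 1.86 (SE 0.21, adjusted p = 1.28e-08). The neurofilament genes Nefm (5.29, 5.15 and 5.65 against 7.90, 8.04 and 7.81) and Nefl were instead lower, at -2.55 (SE 0.36, adjusted p = 1.7e-06) and -1.85 (SE 0.29, adjusted p = 8.66e-06), and with them Pou4f1, a sensory neuron factor (-0.67, and -0.42 and not called without maxillary replicate 1). Maxillary arrays were the high ones for both neurofilaments, without overlap. Ina, an intermediate filament gene of young neurons, was higher by 0.92, and the general neuron genes Tubb3 (0.39) and Stmn2 (0.11) did not pass. The summed linear signal of the neuron list was 4502 to 4819 in frontonasal and 3898 to 4751 in maxillary arrays, so the groups overlapped.

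Genes of peripheral nerve and muscle were among the maxillary ones. Of 14 genes of glia and melanoblasts 5 were lower and 2 higher (median -0.09): Gfra3, Ednrb and Ngfr, which encode receptors, were among the lower (-1.69, -1.62 and -0.89). Sox10, the defining glial factor, differed by -0.36 (SE 0.15, adjusted p = 0.165) and did not pass. Fabp7, a fatty acid binding protein of glial precursors, read 5.50, 5.49 and 5.28 against 7.76, 7.44 and 7.48 (-2.14, SE 0.28, adjusted p = 4.3e-07). Of 24 skeletal muscle genes 5 were lower and 1 higher (median -0.17). Actc1, the actin of heart and embryonic muscle, read 6.51, 6.78 and 6.81 against 9.08, 8.93 and 8.66 (-2.19, SE 0.35, adjusted p = 1.65e-05), with Myod1 (-0.78), Myh3, Myl4 and Neb lower as well, and Pax7 was the higher one.

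Many markers of epithelium were higher in frontonasal mesenchyme, although ectoderm had been removed from both groups. Of 40 tested epithelial markers 21 were higher and 0 lower, with a median of 0.81 (25 higher and 2 lower at an unadjusted limma p under 0.05). With maxillary replicate 2 left out 28 were higher. Epcam, an adhesion molecule of most epithelia, read 8.53, 8.61 and 8.59 against 5.31, 6.76 and 5.17 (2.83, SE 0.28, adjusted p = 1.06e-09), and 3.34 without that replicate. The tight junction gene Cldn6 read 9.81, 9.81 and 9.94 against 6.53, 8.08 and 6.32 (2.88, SE 0.25, adjusted p = 4.26e-11), and Esrp1, an epithelial splicing factor, 8.59, 8.66 and 8.59 against 5.41, 7.35 and 4.84 (2.75, SE 0.33, adjusted p = 7.09e-08). The frontonasal arrays agreed closely, and maxillary replicate 2 lay between the groups. Without it Cldn6 differed by 3.43 and Esrp1 by 3.49.

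Keratins of simple epithelium passed the test with and without maxillary replicate 2, and the calls of several stratified epidermis genes depended on that array. Krt8 read 9.16, 9.21 and 9.19 against 7.05, 7.33 and 7.02 (2.05, SE 0.12, adjusted p = 1.06e-15), and its partner Krt18 8.69, 8.57 and 8.86 against 6.06, 6.85 and 6.41 (2.27, SE 0.18, adjusted p = 8.1e-12). Krt14 read 6.04, 6.23 and 6.25 against 5.39, 6.97 and 5.18 (0.33, SE 0.32, adjusted p = 0.724), Krt5 differed by 0.83 (SE 0.31, adjusted p = 0.0989) and Krt15 by 0.23 (SE 0.19). For Krt14 the groups overlapped, since maxillary replicate 2 exceeded all 3 frontonasal arrays. Without that replicate Krt14 differed by 0.89 (limma adjusted p = 0.0496) and Krt5 by 1.44 (limma adjusted p = 0.000178), and both passed. Trp63, the master regulator of stratified epithelium, read 7.14, 6.91 and 6.83 against 6.27, 7.30 and 6.04 (0.42, SE 0.19, adjusted p = 0.196), with frontonasal and maxillary ectoderm at 10.08 and 10.51. It too passed without maxillary replicate 2 (0.81, limma adjusted p = 0.000324). Perp, a desmosomal gene and Trp63 target, differed by 0.12 (SE 0.26) and read 5.84, 6.01 and 5.73 in frontonasal arrays against 9.72 in frontonasal ectoderm. Perp and Krt15 did not pass without that replicate either (0.56 and 0.41). Whether the difference of one keratin exceeds that of another was not tested.

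The summed linear signal of the 40 epithelial markers was 6951, 6823 and 6814 in frontonasal and 2387, 3959 and 2197 in maxillary mesenchyme arrays. It was 2314 to 2534 in mandibular mesenchyme, 25639 to 32580 in frontonasal ectoderm and 30176 to 30561 in maxillary ectoderm. Frontonasal mesenchyme was thus above both other mesenchymes and well below any ectoderm. Of the 40 markers 36 were detected on all 6 arrays. In the mandibular prominence, 79 of the 194 probe sets at least 2-fold higher in frontonasal mesenchyme (40.7%) were also at least 2-fold higher in ectoderm than in mesenchyme, against 5.11% of all tested, and 16 (8.25%) were at least 2-fold lower, against 3.76%. The part of epithelial RNA in the other differences was not tested.

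The cranial mesenchyme markers that passed lay the other way, with 0 of 23 higher and 5 lower (median -0.15; 1 higher and 6 lower at an unadjusted limma p under 0.05). Besides Prrx1 these were Twist2, at 8.45, 8.12 and 8.51 against 9.63, 9.45 and 9.65 (-1.22, SE 0.31, adjusted p = 0.00542), the transcriptional repressors Zeb2 (-1.14) and Snai2 (-0.95), and the receptor Nrp1 (-0.80). Twist1 (-0.26, SE 0.34) and Pdgfra, both defining genes of facial mesenchyme, did not pass. The summed signal of the list was 24936, 23753 and 24845 in frontonasal, 30033, 28987 and 30028 in maxillary and 25872 to 27836 in mandibular mesenchyme, against 5815 to 11487 over the ectoderm arrays. Without frontonasal replicate 1 or 2 or maxillary replicate 3 the number lower was 3.

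**Figure D3:**
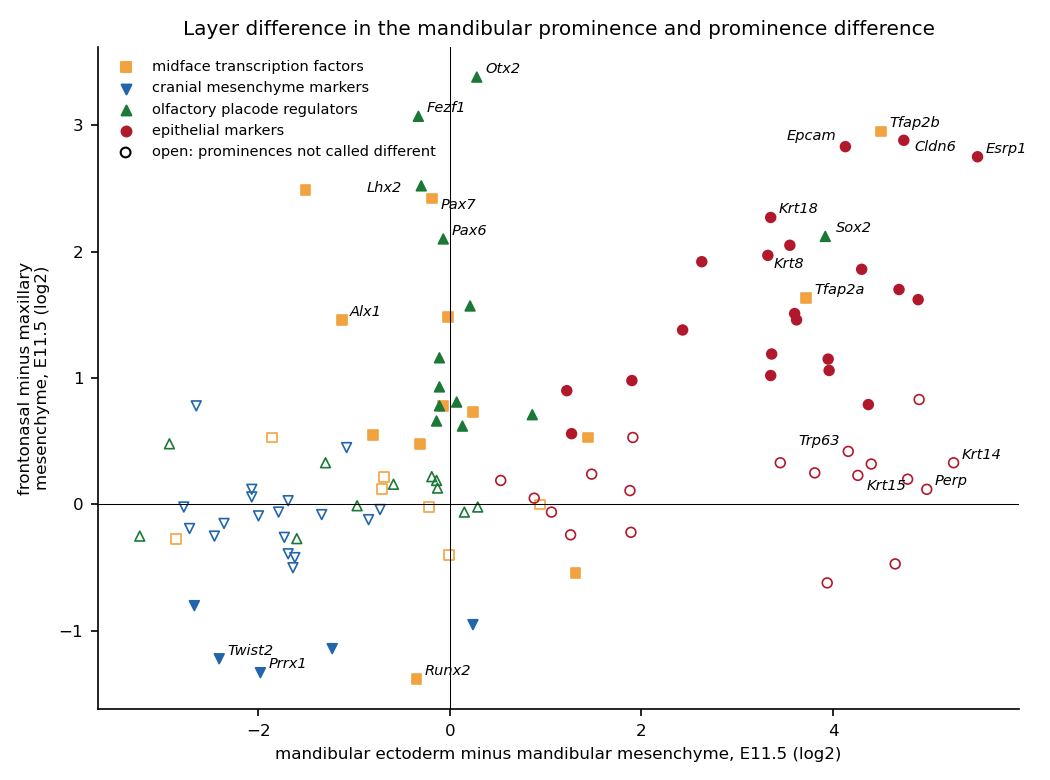
Frontonasal minus maxillary difference in E11.5 mesenchyme (log2, y axis) against mandibular ectoderm minus mandibular mesenchyme at E11.5 (log2, x axis), 1 point per gene of 4 lists; filled points passed the prominence test and open ones did not. Epcam, Cldn6 and Esrp1 lie at upper right, Krt14, Krt15 and Perp at far right near zero, and Otx2 and Fezf1 at the top near no mandibular layer difference. The x axis does not give the layer difference of Otx2 and Fezf1 in the frontonasal prominence. There, their ectoderm means lay above their mesenchyme arrays.

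No marker of vessels or blood cells passed the test. Of 19 endothelial, 14 erythroid and 14 leukocyte genes the limma fit called 0; at an unadjusted p under 0.05 the numbers higher and lower were 1 and 2, 0 and 0, and 1 and 0. None of 17 immediate early and stress genes passed, with none under the unadjusted threshold, and the same held for 10 anterior Hox genes, of which 2 were detected on all 6 arrays. Of 10 neural tube and eye genes 2 were higher, Crym (1.47) and Olig2 (0.74), and Cryab (-0.85) was lower. Of 20 cell cycle genes 1 was higher, the inhibitor Cdkn1a (0.52, not called without maxillary replicate 3), and 2 lower, Rrm2 (-0.30) and Ccne1 (-0.28). The lower count was 0 or 1 with each of frontonasal replicates 1 and 2 or the maxillary replicates left out. The list still leaned to the maxillary side, with a median of -0.14 and 3 of the 20 differences positive. Its summed linear signal was 24687 to 26054 in frontonasal and 27346 to 27552 in maxillary arrays, without overlap.

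Skeletal, matrix, guidance and adhesion genes were divided between the prominences. In the cartilage and bone list 3 of 24 were higher and 4 lower (median 0.03): Sox9, the chondrogenic factor, read 9.33, 9.50 and 9.40 against 8.13, 8.10 and 8.05 (1.32, SE 0.12, adjusted p = 1e-10), and Col2a1 (0.48) and Alpl (0.76) were higher, whereas Runx2, Ucma (-0.73) and Sox6 (-0.37) were among the lower. Of 40 matrix genes 5 were higher and 6 lower (median -0.06), and 12 were lower with arrays weighted. The tenascins Tnn (4.97, 4.98 and 4.99 against 6.75, 6.62 and 6.84) and Tnc were lower (-1.76 and -0.93), as was Col6a1 (-1.14). Thbs1, Npnt, Col12a1, Loxl1 and Col14a1 were higher by 0.81, 0.79, 0.74, 0.73 and 0.53.

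Of 36 axon guidance genes 9 were higher and 10 lower (median 0.06). The netrin receptor Unc5c read 8.42, 8.43 and 8.43 against 7.28, 7.12 and 7.06 (1.27, SE 0.11, adjusted p = 3.34e-11), and Ephb1, Efnb2 and Efna5 of the ephrin system were higher by 1.14, 0.94 and 0.86. The chemokine Cxcl14 read 7.61, 7.11 and 7.70 against 9.43, 9.52 and 9.55 (-2.03, SE 0.17, adjusted p = 1.28e-11), while the semaphorin and Slit genes Sema5a, Slit3 and Slit2 were lower (-0.82, -0.65 and -0.42). Of 20 cadherins and protocadherins 7 were higher and 3 lower (median 0.05), with Cdh1 (1.70) and Cdh3 (1.42), both of epithelia, at the top and Pcdh10 and Pcdh9 (-1.23) at the bottom.

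Of 37 genes linked to orofacial clefts 13 were higher and 4 lower (median 0.17), with Cdh1, Tfap2a, Alx1, Pax9 and Tbx22 among the higher. The lower members included Osr2, Shox2 (-0.58) and Foxf2, and 2 of the 4 were called without frontonasal replicate 2 or maxillary replicate 1 or 2. Among 19 imprinted and fetal growth genes 3 were higher and 5 lower (median -0.12). Plagl1, an imprinted zinc finger gene, was higher by 0.94 (SE 0.09, adjusted p = 5.33e-10), Igf2 by 0.29 and Rtl3 by 0.64, and the imprinted genes Peg10, Zim1, Nnat and Mest were lower (-0.68, -0.45, -0.29 and -0.25). Hmga2, a chromatin protein of fetal growth that is not imprinted, was the other lower member (-0.37 by its brighter probe set, while another differed by 0.3 and did not pass). Between 1 and 4 of these 5 were called when 1 array was left out, and 1 of the 3 higher ones without frontonasal or maxillary replicate 3.

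**Figure D4:**
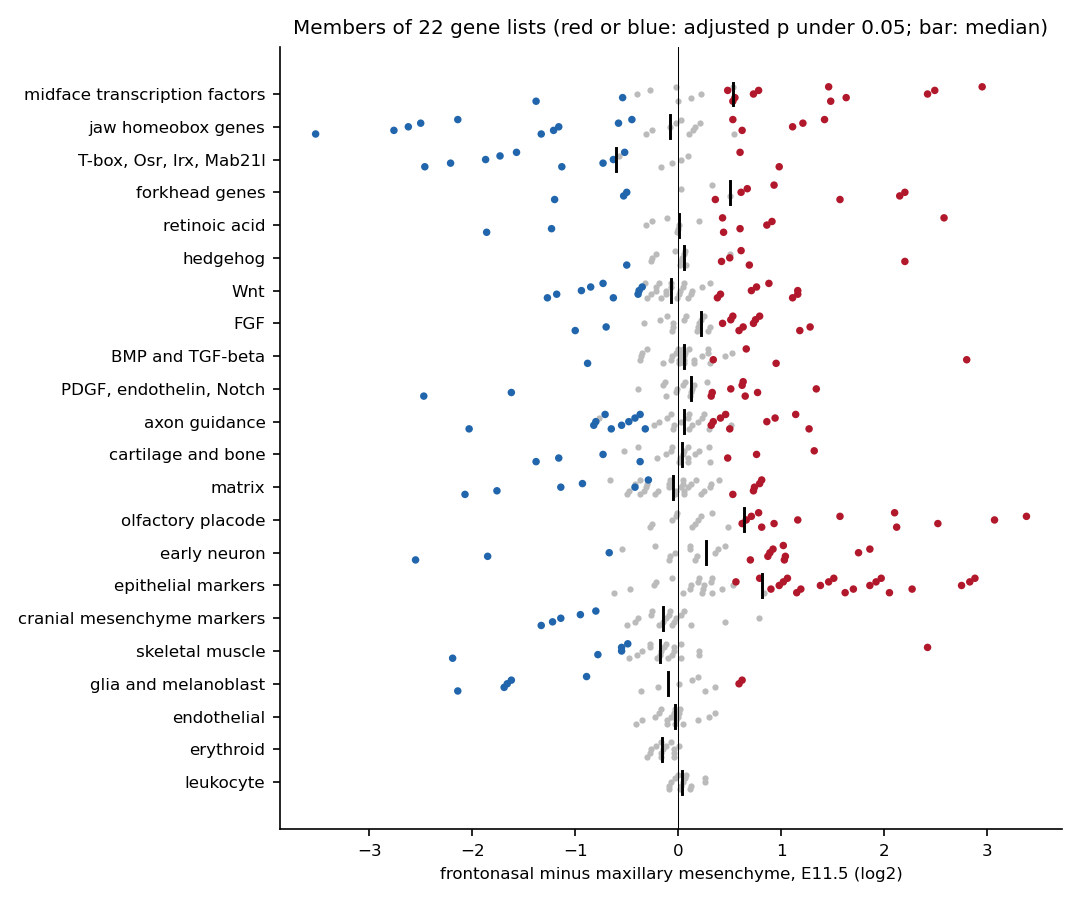
Frontonasal minus maxillary difference (log2, x axis) of each tested member of the gene lists (rows) in E11.5 mesenchyme; red and blue points passed at an adjusted p under 0.05, grey points did not, and the black bar is the list median. Epithelial markers have the highest median (0.81) and the T-box, Osr, Irx and Mab21l genes the lowest (-0.61).

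The remaining genes among the 15 largest frontonasal differences are enzymes and calcium or lipid proteins. Sult1e1, the oestrogen sulfotransferase, read 6.02, 6.26 and 6.40 against 2.61, 2.71 and 2.83, with no maxillary array detecting it (at least 11.4-fold higher, SE 0.16 log2 units, adjusted p = 1.94e-18). Atp8b4, a lipid flippase, read 6.15, 6.52 and 6.15 against 3.82, 3.74 and 3.83, at least 5.57-fold higher (adjusted p = 7.62e-14). Slc27a2, an acyl-CoA synthetase, read 7.21, 7.07 and 7.45 against 4.47, 4.67 and 4.46 (2.71, SE 0.19, adjusted p = 1.56e-13). No maxillary array reached the frontonasal range for these 3. Sgpp2, a sphingosine phosphate phosphatase, read 8.81, 8.68 and 8.91 against 5.76, 6.30 and 6.26 (2.69, SE 0.15, adjusted p = 8.24e-16), and Pcp4, a calmodulin regulator, 8.19, 8.36 and 8.10 against 5.52, 5.71 and 5.43 (2.66, SE 0.14, adjusted p = 2.15e-16).

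At E12.5 most of these differences kept their direction. The E12.5 contrast compares arrays separate from those of E11.5, but it shares the fit and the variance estimate of each probe set. It called 2126 probe sets (14.7%), 1392 of them higher in frontonasal mesenchyme (9.62%) and 734 lower (5.07%). Of the 194 at least 2-fold higher at E11.5, 191 had the same sign at E12.5 and 183 were called in that direction, and of the 89 at least 2-fold lower these numbers were 82 and 62. No such probe set was called in the opposite direction. Among all 955 higher and 446 lower probe sets, 685 and 238 were called in the same direction at E12.5. The opposite direction was called for 12 and 6 of them. The median difference of the higher ones was 1.30 at E11.5 and 1.46 at E12.5, and that of the lower ones -1.43 and -0.94. Both sets were picked by their E11.5 value, so these medians do not show a change with age. Over all tested probe sets 62.9% had the same sign at both ages. Of the 40 epithelial markers 31 were higher in frontonasal mesenchyme at E12.5 and 0 lower (median 1.38). Their summed linear signal at that age was 9215 to 10037 in frontonasal and 2431 to 3845 in maxillary mesenchyme. The part of epithelial RNA in the E12.5 differences was not tested. The size of the difference itself depended on age for 400 probe sets (2.76%), 175 (1.21%) with a greater frontonasal minus maxillary value at E11.5 and 225 (1.55%) with a greater one at E12.5.

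Some of the leading genes changed in size with age. Of the 30 genes chosen for the largest differences 9 passed the limma test of E11.5 against E12.5. They were chosen by the E11.5 value that enters this test, so their share is not comparable with the 2.76% of all probe sets. Dlx1 went from -3.52 at E11.5 to -2.71 at E12.5 (difference of differences -0.81, adjusted p = 0.0176). Aldh1a3 went from 2.58 to 1.68 (0.90, adjusted p = 0.0175). Sult1e1 and Fstl5 had larger differences at E12.5, 5.02 and 3.83 (-1.51, adjusted p = 3.42e-05, and -1.03, adjusted p = 0.00722). The frontonasal mean of Sult1e1 was 4.78, 6.23 and 7.64 at E10.5, E11.5 and E12.5.

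Several genes with a lower frontonasal signal at E11.5 did not pass at E12.5. Ppp1r17, a phosphatase inhibitor of neurons, read 3.65, 3.77 and 3.50 against 6.46, 5.46 and 5.15 (-2.05, SE 0.27, adjusted p = 3.68e-07) and differed by 0.07 at E12.5 (difference of differences -2.12, adjusted p = 0.000587). Its E11.5 mandibular mesenchyme mean was 3.36 ± 0.04. Lgi1, a secreted protein of synapses, read 4.06, 3.93 and 4.09 against 6.03, 6.30 and 5.89 and went from -2.05 to 0.41 (-2.45, adjusted p = 4.06e-05). Fabp7 went from -2.14 to -0.09 (-2.05, adjusted p = 0.00164) and Ppp1r1c, another phosphatase regulator, from -1.83 to 0.05 (-1.88, adjusted p = 0.000232). All maxillary arrays at E11.5 were above all frontonasal arrays for each. Sim2 kept its sign but went from -2.53 to -0.79 (-1.74, adjusted p = 1.04e-05).

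Foxd1 and Cxcl13 showed the frontonasal counterpart. Foxd1 went from 2.20 at E11.5 to -0.27 at E12.5 (2.48, adjusted p = 0.000291), with maxillary means of 6.73 ± 0.32 and 8.02 ± 0.14. Cxcl13, a chemokine, read 5.63, 5.55 and 6.34 against 3.77, 4.05 and 4.01 at E11.5 and differed by 0.32 at E12.5 (1.58 for the difference of differences). Its frontonasal mean was 8.26 ± 0.24 at E10.5, 5.84 ± 0.43 at E11.5 and 4.17 ± 0.11 at E12.5. Wif1 and Lgr5 went from 1.16 and 1.11 to -0.32 and -0.31 (1.48 and 1.42 for the difference of differences).

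Egfl6, Cnmd and Meox2 did not pass at E11.5 and differed at E12.5. Egfl6, an EGF repeat matrix protein, read 6.17, 6.14 and 6.29 against 6.34, 6.18 and 6.14 at E11.5 and differed by -1.95 at E12.5 (1.93, adjusted p = 1.33e-07). Cnmd, the cartilage protein chondromodulin, had overlapping arrays at E11.5 (0.09) and differed by 2.29 at E12.5 (-2.20, adjusted p = 8.78e-09), with frontonasal means of 5.37 ± 0.29 and 7.90 ± 0.26. Meox2, a homeobox gene of muscle and vessels, went from -0.14 to -1.88 (1.74, adjusted p = 1.04e-05). Cyp1b1, a monooxygenase that can oxidise retinol, turned from 0.80 to -1.25 (2.06, adjusted p = 4.65e-10) by the brighter of its 2 probe sets; the other differed by 0.21 at E11.5. Elavl4, a neuronal RNA-binding protein, went from 1.03 to 2.97 (-1.94, adjusted p = 0.000269).

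**Figure D5:**
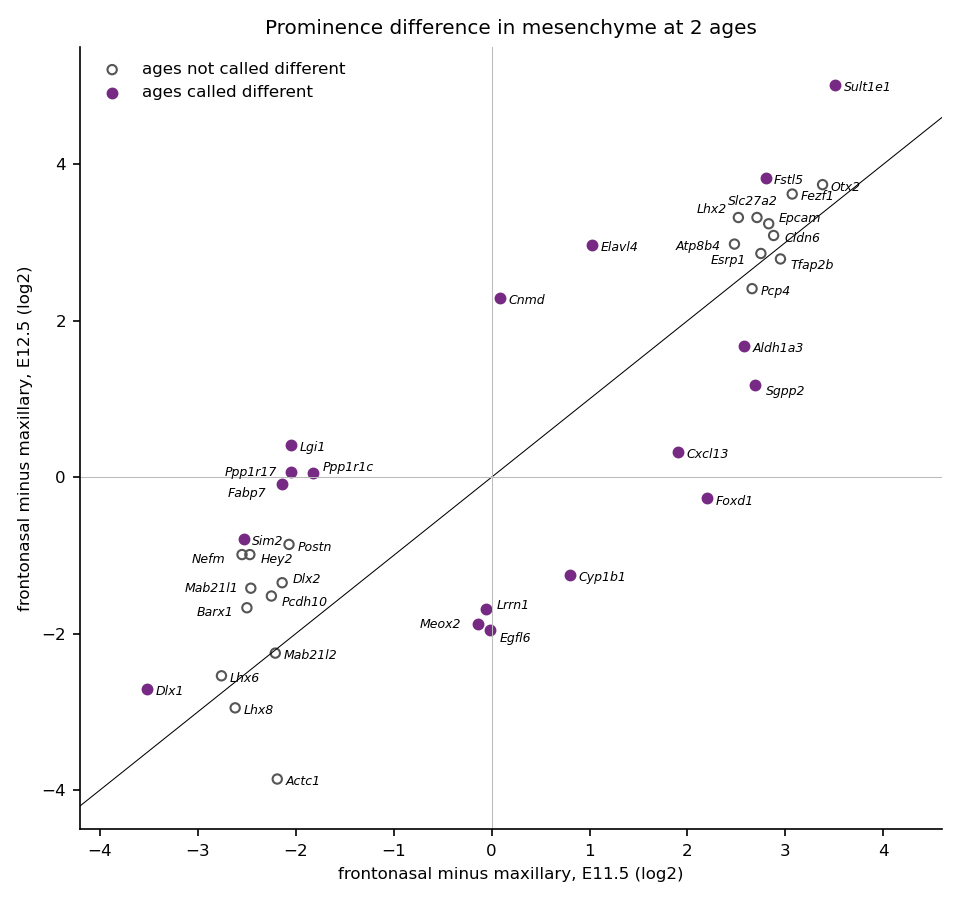
Frontonasal minus maxillary difference in mesenchyme at E12.5 (log2, y axis) against that at E11.5 (x axis), 1 point per gene named for the size or the age dependence of its difference; filled points passed the test between ages, open ones did not, and the line marks equal values. Otx2, Fezf1 and Dlx1 lie far from zero at both ages, Foxd1, Lgi1 and Ppp1r17 near zero at E12.5, and Egfl6, Meox2 and Cnmd near zero at E11.5.

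The ectoderm of the same prominences was compared in the same way. Between frontonasal and maxillary ectoderm at E11.5, 943 probe sets (6.52%) were called, 584 (4.04%) higher in frontonasal ectoderm and 359 (2.48%) lower, and 598 (4.13%) had a difference that depended on layer, 392 (2.71%) with a greater frontonasal minus maxillary value in mesenchyme and 206 (1.42%) with a smaller one. Of the 30 named genes 15 passed this test, but they were chosen by the mesenchyme difference that enters it. Their share is therefore not comparable with the 4.13%. Frontonasal ectoderm replicate 2 had a low weight (0.167) where each array was weighted by its fit to its group, and without it 471 probe sets passed.

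Dlx1 differed by -3.52 in mesenchyme and -0.32 in ectoderm (difference of differences -3.20, adjusted p = 2.11e-13), and Dlx2 by -2.14 and -0.10 (-2.04, adjusted p = 9.81e-06). Ectoderm of the 2 prominences had Dlx1 means of 7.77 ± 0.18 and 8.09 ± 0.10, between the 2 mesenchymes. Sim2, Mab21l1, Barx1 and Lhx6 likewise had the more negative value in mesenchyme (-2.28, -2.20, -1.87 and -1.87 for the difference). Tfap2b differed by 2.95 in mesenchyme and -0.26 in ectoderm (3.21, adjusted p = 1.1e-10), with ectoderm means of 10.44 and 10.70, and Epcam by 2.83 and 0.13 (2.70, adjusted p = 1.88e-05). Cldn6, Esrp1 and Sox2 gave 2.66, 2.86 and 2.09 for the same test.

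Otx2 and Fezf1 differed in both layers. Otx2 differed by 3.38 in mesenchyme and 3.49 in ectoderm (difference of differences -0.11, SE 0.34, adjusted p = 0.963) and Fezf1 by 3.07 and 3.71 (-0.64, SE 0.26, adjusted p = 0.228). Lhx2 (2.52 and 2.63) and Sult1e1 (3.51 and 3.72) also missed the threshold of the layer test, which does not show the layers to be equal. Of the olfactory list 13 members were higher in mesenchyme and 18 in ectoderm. Of the epithelial list 21 were higher in mesenchyme, whereas in ectoderm 4 were higher and 3 lower. Mecom, a zinc finger factor, had opposite signs, -0.65 in mesenchyme (not called) and 1.86 in ectoderm (-2.52, adjusted p = 2.66e-05). These values are from the brighter of its 2 probe sets. The other differed by -0.32 in mesenchyme and was not called.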

How the data were processed

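Total RNA was labelled with biotin and hybridised to Affymetrix Mouse Gene 1.0 ST arrays, 1 per pool. The deposited value table holds log2 values for 28944 probe sets on 45 arrays, made by the authors with RMA in Affymetrix Power Tools 1.91, per the submitters' processing notes, which also name the build mm9. The deposited detection p-values for 35557 probe sets come from apt 1.8.0, per the file headers, and 6613 of those probe sets have no log2 value and were not analysed here. Symbols come from the authors' deposited table of ANOVA q-values (9626 probe sets), whose q-values were not used. They were brought to current names through RefSeq: 8452 were unchanged, 853 found through a synonym and 93 kept, and 228 probe sets had none. All value columns were mapped to samples, leaving 0 unmapped.

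Probe sets with a variance over all arrays above the median (0.0414) were tested. Group means of all 15 groups were estimated together with limma 3.58.1 (R 4.3.3) under moderated variances, with 30 residual degrees of freedom. All 14472 probe sets entered the Benjamini-Hochberg adjustment, and 0.05 was the threshold. Contrasts were frontonasal minus maxillary mesenchyme at E11.5, this difference minus that at E12.5, and this difference minus that in ectoderm. A detection p under 0.05 on an array counted as detected, and a fold against a group with 0 detecting arrays is given as a lower bound. Where a symbol had several probe sets the one with the higher mean signal was used. On simulated data the fit was checked to recover known differences. Python 3.11.15, numpy 2.4.6, pandas 2.3.3 and matplotlib 3.10.9 were used.

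Named genes are the 15 in each direction with the largest differences past the threshold, with a single symbol and no overlap of arrays, and the 6 in each direction for each difference of differences. Any member of a gene list could be named as well. A few genes counted in the results are not reported here. The members, the lists and the tests were chosen with earlier results of these data known. Lists are described by counts and medians, with no test of a list. Precision is limited by the 3 arrays a group, and no batch is given in the labels. The alternatives tried were dropping the variance filter, filtering on detection instead, fitting the compared groups only, moderating with a trend and robustly or not at all, centring each array on its median, repeating quantile normalization, weighting arrays, blocking on the replicate number, and leaving out each array.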

Additional observations from a re-analysis of the deposited data

Results flagged for a closer look

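The differences below depended on age or layer by the limma test of the difference itself. On the frontonasal minus maxillary scale, the E11.5 value exceeded the E12.5 value by 2.48 for Foxd1, 2.06 for Cyp1b1, 1.93 for Egfl6, 1.74 for Meox2, 1.63 for Lrrn1 (whose call was lost in 14 refits), 1.58 for Cxcl13, 1.51 for Sgpp2 and 0.90 for Aldh1a3. For Foxd1, Cxcl13, Sgpp2 and Aldh1a3 this is a larger frontonasal excess at the earlier age, while Egfl6, Meox2 and Lrrn1 did not pass at E11.5 and were higher in maxillary mesenchyme at E12.5. The E11.5 value was the more negative one for Lgi1 (-2.45), Cnmd (-2.20), Ppp1r17 (-2.12), Fabp7 (-2.05), Elavl4 (-1.94), Ppp1r1c (-1.88), Sim2 (-1.74), Sult1e1 (-1.51), Fstl5 (-1.03) and Dlx1 (-0.81). Sult1e1, Fstl5 and Elavl4 are frontonasal genes whose excess was larger at E12.5.

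The mesenchyme value exceeded the ectoderm value at E11.5 by 3.21 for Tfap2b, 2.86 for Esrp1, 2.70 for Epcam, 2.66 for Cldn6, 2.09 for Sox2, 2.09 for Tfap2a, 1.15 for Aldh1a3 and 0.92 for Sgpp2. Tfap2b, Tfap2a, Esrp1, Epcam and Cldn6 were high in the ectoderm of both prominences. The mesenchyme value was the more negative one for Dlx1 (-3.20), Mecom (-2.52), Lgi1 (-2.46), Sim2 (-2.28), Mab21l1 (-2.20), Dlx2 (-2.04), Ppp1r17 (-1.96), Barx1 (-1.87), Lhx6 (-1.87) and Nefm (-1.73).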

How the results depend on the processing

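The number of probe sets called between the prominences at E11.5, 1401, was 1232 to 1650 under all alternatives except array weights and left-out arrays. Array weights gave 2537 (1492 higher and 1045 lower), and the cause was not tested. Leaving out 1 array gave 1053 to 1235, with 725 to 841 higher and 328 to 394 lower. The 30 leading genes kept their direction and call in all 450 refits. For E11.5 against E12.5, 400 probe sets became 982 with array weights (446 and 536), and 286 to 358 with 1 array left out (129 to 160 and 149 to 210); the 149 came without frontonasal E12.5 replicate 3. Maxillary E12.5 replicate 1 had an array weight of 0.224, and without it 311 passed. For mesenchyme against ectoderm, 598 became 379 with only the groups compared (241 greater in mesenchyme). That setting has fewer samples, and the cause of the drop was not tested. With array weights 1186 passed (662 and 524), and with 1 array left out 422 to 627 (265 to 406 and 153 to 221). Of the 12 genes named for each of these tests, Lrrn1 (1.63 for E11.5 against E12.5, adjusted p = 0.0364) missed the threshold in 14 of its refits, with adjusted p of 0.0535 to 0.0895, and the others kept theirs. Replicate numbers are shared between groups, but deviations of same-numbered frontonasal and maxillary arrays correlated at 0.076, 0.025 and -0.003, and no pairing was assumed. The replicate block gave 1446 calls. No called result reversed, although without maxillary E12.5 replicate 1 the age test called more greater (160) than smaller (151) differences, against 175 and 225. Of 230 called list members and named genes 55 lost the call with some array left out, and 6 (Cxcl12, Peg10, Prrx1, Rspo2, Sfrp1 and Shox2) with any. Of 900 list counts under alternatives 76 moved by over 1.5 times, mostly counts of 5 or fewer, but array weights took lower matrix genes from 6 to 12. Signals near background compress differences, and unnamed probe sets enter the totals but not the lists.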
